A study of Mus musculus with 6 samples.

Results

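Transcripts of glycolysis and of the hypoxia response were measured in day 4 embryoid bodies (EBs), the floating aggregates in which mouse embryonic stem cells (mESCs) differentiate. The gene set was defined by name from general knowledge of both pathways, with earlier results of these data known. It holds 36 of the 23353 genes listed, namely 18 glycolytic enzymes, 7 transporters and regulators of glycolysis, and 11 genes of the hypoxia-inducible factor (HIF) pathway, and the groups were treated apart. Of these, 35 are listed under their own symbol. The enzyme named Pkm2 is listed as Pkm, for which it is an older symbol in RefSeq. EBs of the parental W9.5 mESCs (wildtype) were compared with EBs of Evx1Δfs Clone 14, called EVX1-Δfs, with 3 libraries per genotype. Clone 14 is a CRISPR-Cas9 edited W9.5 derivative that carries a different small frameshift deletion on each allele, in exon 2 of Evx1, within the stretch that encodes the homeodomain. Both genotypes were differentiated for 4 days in serum medium without the cytokine LIF, and each differentiation day gave 1 library of each genotype. Because 1 clone was sequenced, effects of the edit and of the clone cannot be told apart. The label EVX1-Δfs embryoid body could not be checked on Evx1 itself, since a frameshift need not alter the read count (log2 fold change of -0.02 ± 0.11 (SE), limma adjusted p of 0.950).

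Glycolysis splits glucose into pyruvate through a chain of cytosolic enzymes and yields ATP without oxygen. Lactate dehydrogenase then regenerates the NAD that the chain consumes, and monocarboxylate transporters carry the lactate out of the cell. HIF is a pair of an alpha subunit and ARNT. In oxygen, prolyl hydroxylases mark the alpha subunit for VHL-dependent destruction, so HIF is controlled largely at the protein level, which transcript counts do not show. When oxygen is low, HIF binds hypoxia response elements and raises transcription of most glycolytic enzymes, of glucose and lactate transporters, and of genes such as Bnip3 and Ankrd37. Pluripotent cells and the early mouse embryo are known for high glycolytic activity.

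The promoters of 4 genes are shown because 3 of them (Slc16a3, Pfkl and Gpi1) were the members that passed the test between genotypes, and because Ldha, a textbook HIF target, had the most matches of those printed and did not pass it. Each window runs from 250 bases before to 50 bases after a RefSeq start site (GRCm38.p6), and is read 5′ to 3′ along the gene's strand. They lie at chr11:120948817-120949116 on the plus strand (Slc16a3), chr10:78009758-78010057 on the minus strand (Pfkl), chr7:34230287-34230586 on the minus strand (Gpi1) and chr7:46845554-46845853 on the plus strand (Ldha, the first of its listed start sites). Capitals mark the core letters of the hypoxia response element, ACGTG or GCGTG, which read CACGT or CACGC on the opposite strand. The E-box CACGTG contains the core on both strands and was counted on each.
Slc16a3: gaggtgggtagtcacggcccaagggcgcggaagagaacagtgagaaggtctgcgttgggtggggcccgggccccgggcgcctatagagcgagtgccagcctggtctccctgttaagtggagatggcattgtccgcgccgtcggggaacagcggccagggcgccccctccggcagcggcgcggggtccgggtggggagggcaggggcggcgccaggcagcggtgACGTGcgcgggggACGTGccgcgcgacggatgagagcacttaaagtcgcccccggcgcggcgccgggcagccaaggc
Pfkl: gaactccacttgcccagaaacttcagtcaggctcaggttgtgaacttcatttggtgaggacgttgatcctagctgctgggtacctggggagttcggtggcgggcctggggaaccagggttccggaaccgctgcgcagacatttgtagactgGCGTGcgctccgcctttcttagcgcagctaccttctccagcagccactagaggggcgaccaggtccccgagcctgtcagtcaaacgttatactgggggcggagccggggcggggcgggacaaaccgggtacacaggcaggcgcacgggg
Gpi1: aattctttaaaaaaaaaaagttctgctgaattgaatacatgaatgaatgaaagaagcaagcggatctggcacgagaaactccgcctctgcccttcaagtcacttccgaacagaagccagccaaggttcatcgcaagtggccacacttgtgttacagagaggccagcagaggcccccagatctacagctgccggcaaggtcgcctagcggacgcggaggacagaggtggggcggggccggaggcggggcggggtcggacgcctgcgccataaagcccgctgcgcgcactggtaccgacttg
Ldha: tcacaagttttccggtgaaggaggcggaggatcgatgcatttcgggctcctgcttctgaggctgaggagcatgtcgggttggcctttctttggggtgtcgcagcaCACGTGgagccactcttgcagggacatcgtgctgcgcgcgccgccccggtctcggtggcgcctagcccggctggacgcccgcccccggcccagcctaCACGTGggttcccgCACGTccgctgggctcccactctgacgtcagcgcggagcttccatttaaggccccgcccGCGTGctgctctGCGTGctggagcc

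The Slc16a3 window held 2 core matches, the Pfkl window 1, the Gpi1 window 0 and the Ldha window 7, of which 4 came from E-boxes. Of the 36 genes, 33 had a promoter in the table, and Slc2a3, Epas1 and Ndrg1 did not. At least 1 match was found in 15 of 18 enzymes (83.3%), 6 of 6 transporters and regulators (100%) and 8 of 9 HIF pathway genes (88.9%), against 6639 of 9772 tested genes with a promoter there (67.9%) and 46.7% of all genes in the table. Such matches describe the letters of these windows and not binding.

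Reads assigned to genes numbered from 7597879 to 9914471 per library. Wildtype replicate 3 stood apart for the enzymes. It was above wildtype replicates 1 and 2 in 13 of 18 enzymes (72.2%, against 38.5% of all genes tested) and was the highest of the 6 libraries in 12 of 18 (25.3% of all genes). Its median log2 difference from replicates 1 and 2 was 0.40 over the enzymes and 0.01 over all genes tested. Together the 18 enzymes took 1.62% of the reads in wildtype replicate 3, 1.18% in each of the other two wildtype libraries, and 1.13% to 1.18% in the EVX1-Δfs libraries. Each enzyme result below is therefore given with and without wildtype replicate 3 where the call or direction differs. Across 12946 genes, which are not independent, log2 fold changes fell with GC content (Spearman's rho of -0.46), and the median GC content was 53.5% for the enzymes, 49.9% for the tested HIF pathway genes and 50.3% for all genes tested. Across 13136 genes, log2 fold changes also fell with mean normalized count (Spearman's rho of -0.27). Primitive streak markers summed to 12220 to 14690 normalized counts in wildtype and 8829 to 11080 in EVX1-Δfs EBs, with T, Mixl1 and Eomes called lower of 5. Blood and endothelial precursor markers summed to 2367 to 3440 and 1496 to 1730, with Kdr and Lmo2 called lower of 6 tested, and 0 of 5 pluripotency markers were called (8600 to 13550 against 10180 to 12840). Over all genes tested, 2.95% were called lower and 2.08% higher. Mixl1, Eomes and Kdr are named as lowered in these libraries by the study's own text, so their direction is not independent evidence. Visceral endoderm markers (Afp, Ttr, Apoa1, Apob and Amn) summed to at most 26.3 in any library. The study reports Sox17, Cer1 and Foxa2, which are not on this list, as raised in these libraries. Neurectoderm markers summed to 158 to 261 in wildtype and 199 to 245 in EVX1-Δfs EBs, with 0 of 2 tested called. Of the skeletal muscle list only Acta1 passed the filter on low counts, and its sum (208 to 392) overlapped between genotypes. The part of these cell type differences in the results was not tested, and in bulk EBs fewer cells of a type cannot be told apart from less RNA per cell.

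To ask whether glycolytic transcripts differed between genotypes, all 18 enzymes were tested, and 2 passed the threshold. Gpi1 and Pfkl, which catalyse consecutive steps at the top of the pathway, fell in EVX1-Δfs EBs, and no enzyme rose. Among all 13136 genes tested, 2.95% were called lower and 2.08% higher. The median log2 fold change was -0.18 over the enzymes, with 15 of 18 below 0, and 0.00 over all genes. Without GC and length trends the enzyme median was -0.10, with 13 of 18 below 0. With cyclic loess it was also -0.10, with 12 of 18 below 0. The all-gene medians in these fits were -0.0227 and -0.00157. Without wildtype replicate 3 the enzyme median was -0.05, with 12 of 18 below 0 and 0 called, against 2.86% of all genes called in that fit. There, 4 of 18 enzymes and 2457 of 13027 genes had an unadjusted limma p under 0.05. With the replicate number, which was taken to mark the day, as a block in limma, 0 enzymes and 1.69% of all genes were called. With that block, 5 of 18 enzymes and 2901 of 13136 genes had an unadjusted p under 0.05. DESeq2 on the recovered reads called 4, adding Tpi1 and Pkm, and 6.89% of all genes. At an unadjusted p under 0.05, 6 enzymes passed in limma without the block (Hk1, Gpi1, Pfkl, Tpi1, Eno2 and Pkm), as did 23.1% of all genes.

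**Figure D1:**
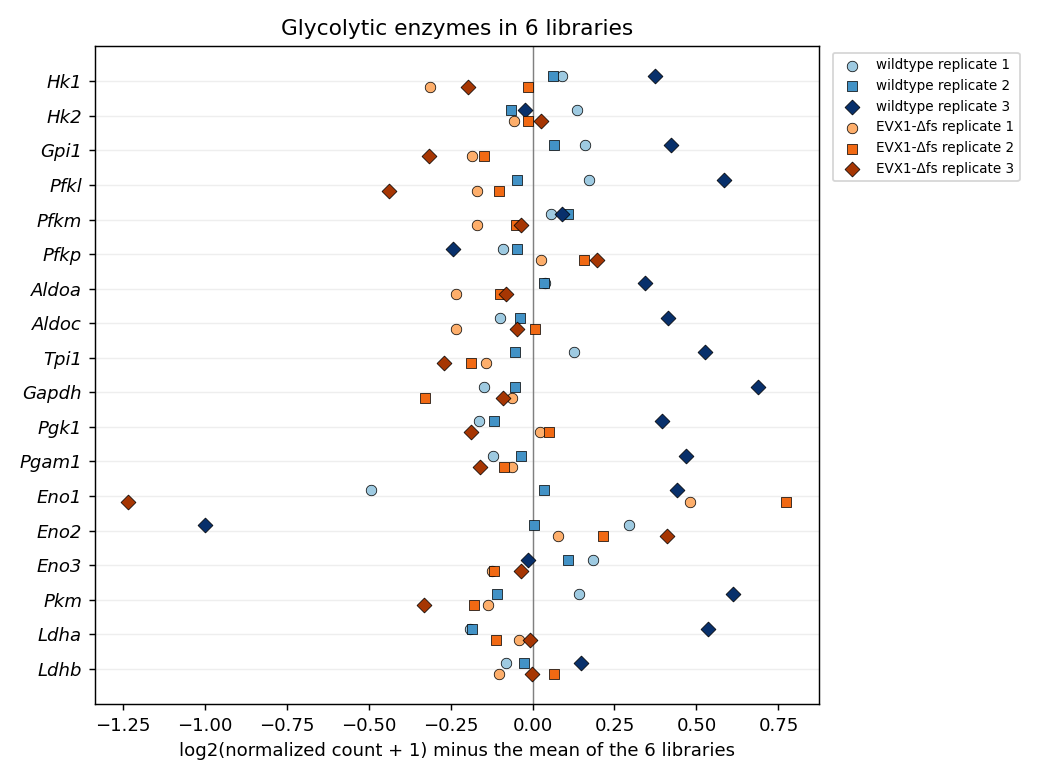
Each row is an enzyme in pathway order, and each point is 1 library, placed on the x axis by its log2(normalized count + 1) minus the mean of the 6 libraries (blue, wildtype; orange, EVX1-Δfs). Wildtype replicate 3, the dark blue diamond, is the highest point in 12 of 18 rows.

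The steps were then taken in order. Hexokinases trap glucose in the cell by phosphorylation. Hk2, the inducible and growth-associated form, had 2088, 1818 and 1871 normalized counts in the wildtype libraries against 1828, 1882 and 1938 in the EVX1-Δfs libraries, in the order of replicates 1 to 3 that is kept below. The genotypes overlapped (log2 fold change of -0.03 ± 0.11 (SE), adjusted p of 0.895). Hk1, the broadly expressed form, had 254, 249 and 309 against 191, 236 and 208 counts, so every wildtype library was above every EVX1-Δfs library, but the difference of -0.35 ± 0.15 on the log2 scale did not pass the test (adjusted p of 0.152).

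Glucose-6-phosphate isomerase, encoded by Gpi1, converts the hexokinase product to fructose-6-phosphate. Its normalized counts were 4689, 4396 and 5629 in wildtype and 3694, 3793 and 3372 in EVX1-Δfs EBs. All 3 wildtype libraries were higher, with means of 4905 ± 644 and 3620 ± 220 (SD, n = 3), a 0.738-fold level. The log2 fold change was -0.43 ± 0.12 (SE) with an adjusted p of 0.0367 in limma and 0.00660 in DESeq2. This call was lost with the replicate block in limma (adjusted p of 0.0889) and kept with it in DESeq2 (0.0465). It was also lost without wildtype replicate 3 (-0.33, 0.0855), and after GC and length correction (-0.36, 0.102). Among the 13 other settings with all libraries, 7 kept the call. Of the 6 fits that left out a library it was kept only without wildtype replicate 2 (0.0293), with 0.0631 to 0.149 in the others. Gpi1 is annotated at chr7:34987141-35015308 (NCBIM37, minus strand), and 741 of its exonic bases overlap Gm17327 on the plus strand.

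Phosphofructokinase commits the sugar to glycolysis, and its subunits are named after liver (Pfkl), muscle (Pfkm) and platelet (Pfkp). Pfkl had 2291, 1967 and 3044 normalized counts in wildtype and 1806, 1891 and 1501 in EVX1-Δfs EBs. The genotypes did not overlap, although wildtype replicate 2 and EVX1-Δfs replicate 2 lay close together, and the means were 2434 ± 552 and 1733 ± 205 (SD, n = 3), a 0.712-fold level. Pfkl fell by 0.47 ± 0.14 (SE) on the log2 scale with an adjusted p of 0.0471. The call was lost with the replicate block in limma (0.116), edgeR (0.135) and DESeq2 (0.416), and without wildtype replicate 3 (-0.30, 0.169). It was also lost after GC and length correction (-0.35, 0.177), with cyclic loess (0.102), with upper-quartile scaling (0.0554) and without the filter on low counts (0.0614). Of the 13 other settings with all libraries, 5 kept the call. Leaving out wildtype replicate 2 kept it (0.0157), and leaving out any other single library gave 0.0650 to 0.197. The gene is annotated at chr10:77449692-77472828 (NCBIM37, minus strand).

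The other subunits did not pass the test. Pfkm had 578, 599 and 592 counts in wildtype and 494, 537 and 542 in EVX1-Δfs EBs, lower in all 3 EVX1-Δfs libraries (-0.17 ± 0.12, adjusted p of 0.392). Pfkp had 346, 357 and 311 against 375, 412 and 423, the 1 enzyme with every EVX1-Δfs library above every wildtype library, and it did not pass either (0.25 ± 0.13, adjusted p of 0.231). On the scale of normalized counts per kilobase of transcript, Pfkp made up 8.87% ± 1.85 of the wildtype phosphofructokinase level and 13.1% ± 1.40 of the EVX1-Δfs level (SD, n = 3), and Pfkl 69.0% ± 5.13 and 62.3% ± 3.68. The Pfkp shares did not overlap (6.85% to 10.5% and 12.1% to 14.7%), while those of Pfkl did. These shares were not tested. GC content was 56.8% for Pfkl and 47.7% for Pfkp. Without GC and length trends their log2 fold changes were -0.35 and 0.15.

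Aldolase splits the sugar into triose phosphates. Aldoa, its ubiquitous form, had 16641, 16633 and 20558 counts in wildtype and 13794, 15143 and 15319 in EVX1-Δfs EBs, and without overlap it still missed the threshold (-0.28 ± 0.13, adjusted p of 0.217). Aldoc, the brain-enriched form, was present at 131 to 205 counts and overlapped (adjusted p of 0.547). Aldoa made up 99.4% to 99.5% of the aldolase level per kilobase in every library.

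Triose phosphate isomerase, Tpi1, interconverts the 2 trioses. It had 3681, 3251 and 4860 counts in wildtype and 3056, 2963 and 2797 in EVX1-Δfs EBs, again lower in all 3 libraries. The log2 difference of -0.40 ± 0.13 had an adjusted p of 0.0694 in limma, 0.0362 in DESeq2, and 0.0279 without wildtype replicate 2. Without wildtype replicate 3 it was -0.24 (0.224). Of the 50-base words of Tpi1, 17.7% occur elsewhere in the genome.

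The enzymes that follow, Gapdh, Pgk1 and Pgam1, overlapped between genotypes. Gapdh, which makes the first NADH of the pathway, had 24410 and 26052 counts in wildtype replicates 1 and 2 but 43555 in replicate 3, against 25899, 21535 and 25410 in EVX1-Δfs EBs. Its log2 fold change was -0.32 ± 0.18 with all libraries and -0.06 without wildtype replicate 3 (adjusted p of 0.289 and 0.830). Pgk1, the first ATP-yielding kinase, moved from -0.08 to 0.10 when that library was left out, and Pgam1, a mutase, from -0.21 to -0.02. Their adjusted p were 0.775 and 0.361 with all libraries. Reads of these genes are less certain, since 91.1% of the 50-base words in Pgam1 exons, 68.3% in Pgk1 and 50.2% in Gapdh also occur elsewhere in the genome.

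Enolases dehydrate phosphoglycerate. Most enolase reads were listed not under Eno1, the ubiquitous form, but under Gm5506, a copy of it on chromosome 18, which held 85.9% to 92.4% of the enolase level per kilobase. Eno1 itself had 66.0, 95.6 and 127 counts in wildtype and 131, 160 and 39.1 in EVX1-Δfs EBs, with the largest SE of any enzyme (log2 fold change of 0.01 ± 0.34, adjusted p of 0.989). Gm5506 had 7417, 7297 and 12562 against 9335, 6941 and 9258 (-0.06 ± 0.17, adjusted p of 0.866, and 0.20 without wildtype replicate 3). Of the 50-base words in Gm5506, 91.4% also occur elsewhere, so how reads divide between the copy and Eno1 is uncertain, and neither differed detectably.

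Eno2, the neuronal enolase, had 330, 270 and 134 counts in wildtype and 284, 312 and 358 in EVX1-Δfs EBs. Wildtype replicate 3 was lowest, and the log2 difference of 0.47 ± 0.21 (adjusted p of 0.192) was 0.09 without that library (0.805) and 0.73 without wildtype replicate 1 (0.0466). Eno3, the muscle enolase, had 850, 807 and 742 against 687, 690 and 731. It was lower in every EVX1-Δfs library without passing the test (-0.18 ± 0.11, adjusted p of 0.336).

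Pyruvate kinase, Pkm, makes pyruvate and the last ATP. Its counts were 24942, 20971 and 34511 in wildtype and 20569, 19950 and 17956 in EVX1-Δfs EBs, without overlap. A log2 difference of -0.43 ± 0.16 had an adjusted p of 0.114 in limma, 0.0357 in DESeq2 and 0.0382 without wildtype replicate 2. Without wildtype replicate 3 the difference was -0.23 (0.281). Of the 50-base words of Pkm, 40.2% occur elsewhere in the genome. The M1 and M2 splice forms cannot be read from counts per gene.

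Lactate dehydrogenase closes the pathway under low oxygen. Ldha, its HIF-induced subunit, had 16418, 16518 and 27160 counts in wildtype and 18243, 17361 and 18673 in EVX1-Δfs EBs. Both wildtype replicates 1 and 2 were below all EVX1-Δfs libraries and wildtype replicate 3 was far above them, and the log2 fold change changed sign, from -0.11 ± 0.16 to 0.14, when replicate 3 was left out (adjusted p of 0.743 with all libraries). Ldhb had 1708, 1773 and 2000 against 1685, 1892 and 1804 (-0.02 ± 0.11, adjusted p of 0.918, and 0.04 without wildtype replicate 3). Ldha made up 87.1% to 90.9% of the lactate dehydrogenase level per kilobase across all 6 libraries.

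Groups that did not overlap were thus found in 8 enzymes with lower EVX1-Δfs values (Hk1, Gpi1, Pfkl, Pfkm, Aldoa, Tpi1, Eno3 and Pkm) and in 1 with higher values (Pfkp). Over all genes tested, 14.7% did not overlap with EVX1-Δfs lower and 12.2% with EVX1-Δfs higher. Within pairs of the same replicate number, EVX1-Δfs differed from wildtype in Gpi1 by -0.34, -0.21 and -0.74 on the log2 scale for replicates 1, 2 and 3. Pfkl differed by -0.34, -0.06 and -1.02, and Pkm by -0.28, -0.07 and -0.94. The pair of replicate 3 gave the widest difference in each.

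**Figure D2:**
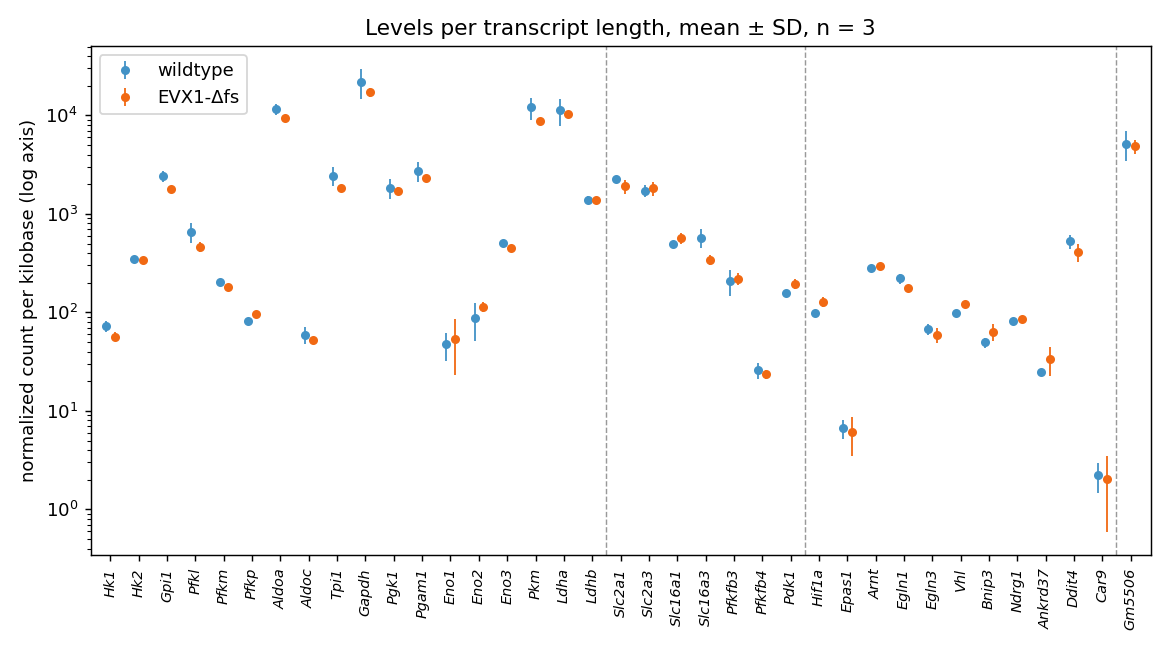
The y axis gives normalized counts per kilobase of the transcript with the longest coding sequence, on a log scale, as mean ± SD of 3 libraries (blue, wildtype; orange, EVX1-Δfs). From left to right the dashed lines part the enzymes, the transporters and regulators, the HIF pathway genes and Gm5506.

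Levels per kilobase of transcript spanned nearly 4 orders of magnitude among the 36 genes. In wildtype EBs Gapdh was highest at 22070, followed by Pkm (12070), Aldoa (11584) and Ldha (11343), which overlapped between libraries and were all below Gapdh. Pgam1, Tpi1, Gpi1 and Slc2a1 formed a second tier from 2717 down to 2242. Gm5506, outside the 36 genes, stood at 5175 and Eno1 at 47.5. Since 50-base words of Pgam1 (91.1%), Gapdh (50.2%) and Pkm (40.2%) occur elsewhere in the genome, these levels and their order are less certain. The phosphofructokinase and hexokinase steps were carried by less abundant transcripts, with 653 for Pfkl and 349 for Hk2. At the low end were Epas1 at 6.65 and Car9 at 2.22.

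Among the transporters and regulators, Slc16a3 had the lowest adjusted p of the 35 genes tested. It encodes MCT4, the low-affinity lactate exporter of strongly glycolytic cells, and had 2275, 2075 and 3103 normalized counts in wildtype and 1366, 1669 and 1381 in EVX1-Δfs EBs. Every wildtype library was well above every EVX1-Δfs library, and the means were 2484 ± 545 and 1472 ± 171 (SD, n = 3). Slc16a3 fell to 0.592 of the wildtype level, by 0.74 ± 0.13 (SE) on the log2 scale, with an adjusted p of 0.00283. The log2 differences within the 3 pairs of the same replicate number were -0.74, -0.31 and -1.17.

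The Slc16a3 call held in all 13 other settings with all libraries, replicate block included (adjusted p of 0.0293), and in all 6 fits that left out 1 library. Across these alternatives its adjusted p ran from 5.82e-05 to 0.0416. Without wildtype replicate 3 the log2 fold change was -0.57 (0.00791), and without GC and length trends it was -0.63 (0.0150). Slc16a3 is annotated at chr11:120809794-120822182 (NCBIM37, plus strand), where 831 of its exonic bases overlap Csnk1d on the minus strand. Of its 50-base words 0.0% occur elsewhere in the genome.

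Slc16a1 encodes MCT1, the broadly expressed monocarboxylate transporter, and had 2138, 2208 and 2224 counts in wildtype and 2379, 2274 and 2871 in EVX1-Δfs EBs. All 3 EVX1-Δfs libraries were above the wildtype libraries, yet the test was not passed (0.19 ± 0.11, adjusted p of 0.327). Per kilobase, Slc16a3 made up 52.1%, 49.0% and 58.8% of the level of both transporters in wildtype and 37.0%, 42.8% and 32.9% in EVX1-Δfs EBs. That share was 53.3% ± 5.00 and 37.6% ± 4.98 (SD, n = 3), without overlap and without a test. GC content was 42.9% for Slc16a1 and 56.5% for Slc16a3, and the shares were not corrected for it. Without GC and length trends the log2 fold change of Slc16a1 was 0.01 (limma adjusted p of 0.974) and that of Slc16a3 was -0.63.

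Glucose enters through GLUT1 (Slc2a1) and the high-affinity GLUT3 (Slc2a3). Slc2a1 had 5922, 6130 and 5480 counts in wildtype and 4615, 4353 and 5911 in EVX1-Δfs EBs (-0.25 ± 0.12, adjusted p of 0.234). Slc2a3 had 7560, 7047 and 5770 against 6399, 6673 and 8627 (0.09 ± 0.13, adjusted p of 0.742, and -0.03 without wildtype replicate 3), and both genes overlapped between genotypes. Slc2a1 made up 54.3% to 59.1% of their joint level per kilobase in wildtype and 49.8% to 52.3% in EVX1-Δfs EBs, again without overlap or test. GC content was 55.0% for Slc2a1 and 47.8% for Slc2a3. Without GC and length trends their log2 fold changes were -0.13 and -0.000677.

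Pdk1 encodes a mitochondrial kinase that inhibits pyruvate dehydrogenase and is a classic HIF target. It had 836, 761 and 873 counts in wildtype and 1069, 880 and 1078 in EVX1-Δfs EBs, higher in all 3 libraries but not past the test (0.29 ± 0.12, adjusted p of 0.144). Pfkfb3 and Pfkfb4 make the sugar bisphosphate that activates phosphofructokinase. Their adjusted p were 0.709 and 0.714, and the log2 fold change of Pfkfb3 turned from 0.13 to -0.15 without wildtype replicate 3. In this group 1 of 7 genes was called, against 5.02% of all genes in either direction. The median log2 fold change was 0.09 with all libraries and -0.15 without wildtype replicate 3, and groups did not overlap in 1 gene with lower values (Slc16a3, against 14.7% of all genes) and 2 with higher values (Slc16a1 and Pdk1, against 12.2%).

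**Figure D3:**
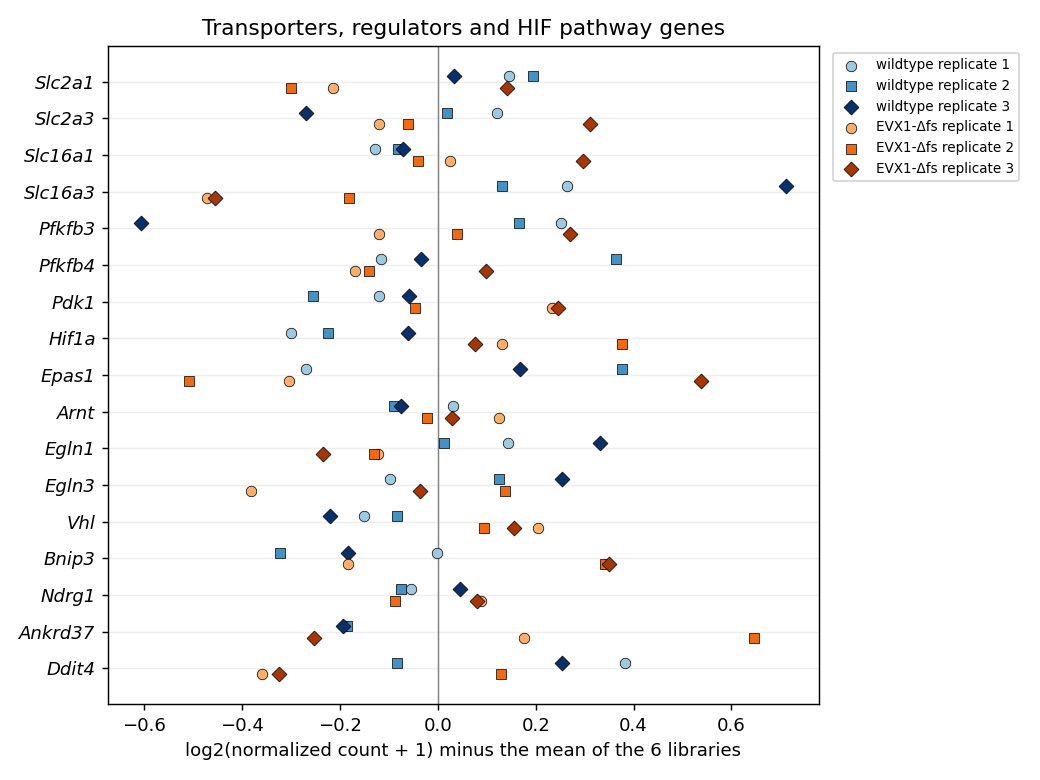
Rows are the transporters, regulators and tested HIF pathway genes, and points are libraries on the x axis of log2(normalized count + 1) minus the mean of the 6 libraries, in the colours of the enzyme plot. Blue and orange points separate completely for Slc16a3, Slc16a1, Pdk1, Hif1a, Egln1 and Vhl. Over all genes tested, 14.7% separate with EVX1-Δfs lower and 12.2% with EVX1-Δfs higher.

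The HIF pathway was examined next, to see whether its subunits, regulators and target transcripts differed. Of 11 genes, 10 passed the filter on low counts, and 0 were called in limma, DESeq2 or edgeR, where edgeR called 5.22% of all genes. At an unadjusted p under 0.05, 4 passed in limma, with Hif1a and Vhl higher and Egln1 and Ddit4 lower in EVX1-Δfs EBs, against 23.1% of all genes at that level. Without GC and length trends, 1 of the 10 passed at that level (Vhl), as did 2200 of 12946 genes. GC content was 40.1% for Hif1a, 55.6% for Egln1 and 57.6% for Ddit4. The median log2 fold change was 0.07, with 6 of 10 above 0. Groups did not overlap in 1 of the 10 with lower values (Egln1) and 2 with higher values (Hif1a and Vhl). Over all genes tested these shares were 14.7% and 12.2%.

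Hif1a, the main oxygen-regulated alpha subunit, had 428, 450 and 505 normalized counts in wildtype and 577, 683 and 555 in EVX1-Δfs EBs. The groups did not overlap, and the means of 461 ± 39.7 and 605 ± 68.8 (SD, n = 3) stood in a ratio of 1.31. The log2 difference of 0.39 ± 0.13 had an adjusted p of 0.0685, from 0.0505 to 0.735 over the alternatives, and was 0.11 once GC and length trends were removed. Hif1a has a GC content of 40.1%, and 330 of its exonic bases overlap Gm15283 on the opposite strand. The other alpha subunit, Epas1, had 26.8, 42.5 and 36.6 counts against 26.1, 22.6 and 47.6 and overlapped (-0.18 ± 0.30, adjusted p of 0.762). Hif1a made up 92.3% to 97.2% of the level of both per kilobase. Arnt, the constitutive partner, had 799, 734 and 742 against 852, 770 and 798 (0.09 ± 0.11, adjusted p of 0.679).

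The oxygen-sensing arm gave differences in both directions that did not pass the test. Egln1, the principal HIF prolyl hydroxylase, had 764, 697 and 870 counts in wildtype and 635, 632 and 588 in EVX1-Δfs EBs, all lower (-0.33 ± 0.12, adjusted p of 0.106). Vhl, the recognition subunit of the ligase that removes hydroxylated HIF, had 273, 286 and 260 against 349, 324 and 337, all higher (0.30 ± 0.13, adjusted p of 0.162). Egln3, a hypoxia-induced hydroxylase, had 156, 182 and 199 against 128, 184 and 163 and overlapped (adjusted p of 0.531).

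Among HIF targets, Bnip3, a mitophagy receptor, had 97.6, 77.9 and 85.9 counts in wildtype and 85.9, 124 and 125 in EVX1-Δfs EBs (0.34 ± 0.19, adjusted p of 0.301). Of its 50-base words 45.2% occur elsewhere in the genome. Ankrd37 had 23.0, 23.0 and 22.9 against 29.9, 41.7 and 21.9 (0.38 ± 0.30, adjusted p of 0.478). Neither of these targets separated the genotypes.

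Ndrg1, a stress-induced gene, had 231, 227 and 247 counts in wildtype and 255, 226 and 253 in EVX1-Δfs EBs (adjusted p of 0.845). Ddit4, an inhibitor of mTORC1 signalling, had 1012, 733 and 925 against 605, 849 and 619, a log2 difference of -0.37 ± 0.14 (adjusted p of 0.120). It passed the test without wildtype replicate 2 (0.0489) and without EVX1-Δfs replicate 2 (0.0456), the libraries in which the order of the genotypes was turned. Car9, the hypoxia-induced carbonic anhydrase, was at 3.44 to 6.19 counts in wildtype and 0.953 to 6.77 in EVX1-Δfs EBs, below the filter, and was not tested.

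**Figure D4:**
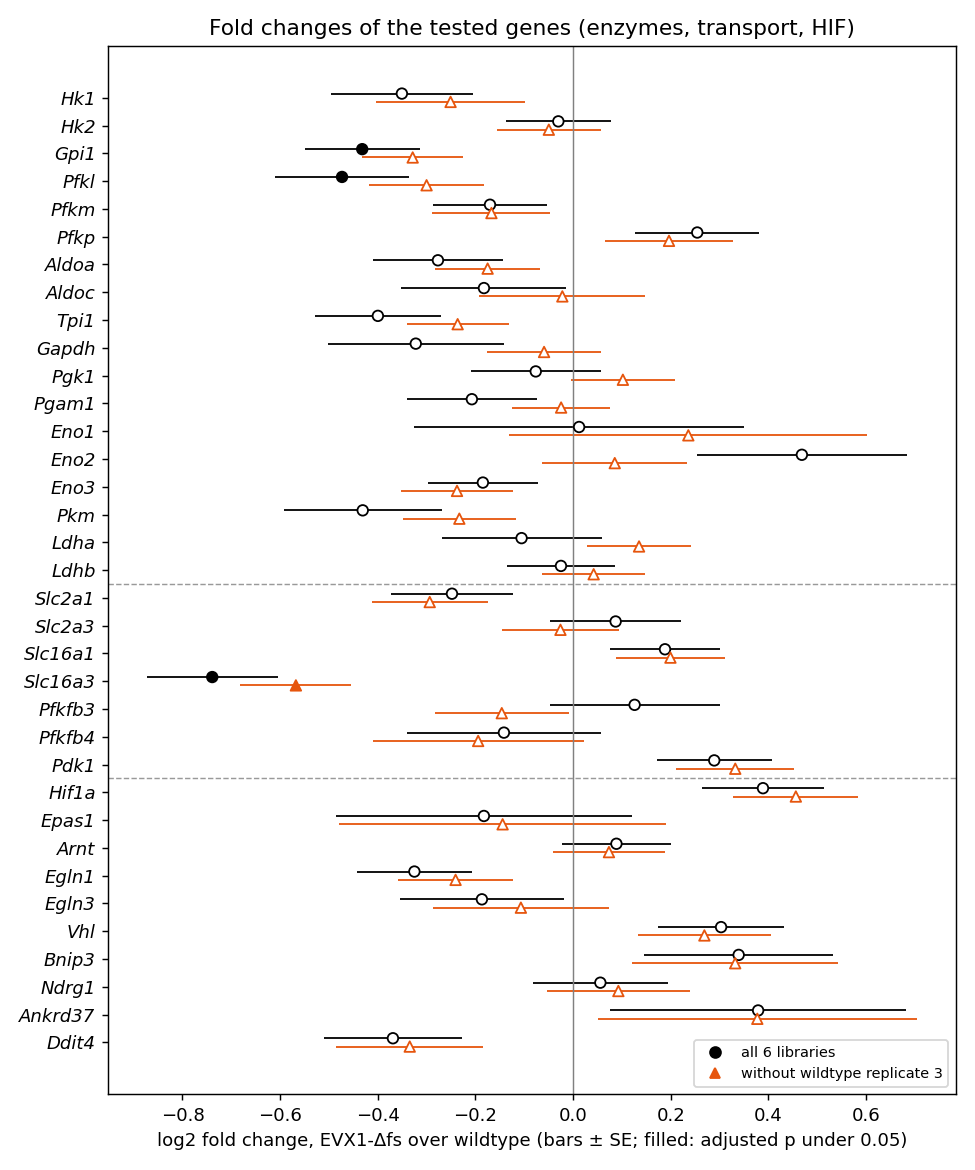
Log2 fold changes of the 35 tested genes, EVX1-Δfs over wildtype, with bars of ± SE (black circles, all 6 libraries; orange triangles, without wildtype replicate 3). Filled symbols have an adjusted p under 0.05: Gpi1, Pfkl and Slc16a3 with all libraries, and Slc16a3 alone without wildtype replicate 3.

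Other genes of glycolysis and its branches were taken from a list of 56 genes in the table, none of them among the 36. Of 43 tested, 2 were called higher and 2 lower, against 2.08% and 2.95% of all genes, with a median log2 fold change of -0.03. Emb encodes embigin, an accessory glycoprotein that escorts monocarboxylate transporters to the membrane. It had 828, 948 and 1135 counts in wildtype and 1238, 1583 and 1428 in EVX1-Δfs EBs. Emb rose by 0.55 ± 0.13 on the log2 scale (adjusted p of 0.0163, and 0.0355 with the replicate block), with means of 970 ± 155 and 1417 ± 173 (SD, n = 3). Its adjusted p was 0.0596 without GC and length trends and 0.00305 without wildtype replicate 3. Leaving out wildtype replicate 1 gave 0.0764, and the call was likewise absent without EVX1-Δfs replicate 2 (0.0669) and without EVX1-Δfs replicate 3 (0.0541). Basigin (Bsg), the usual partner of MCT1 and MCT4 and named here after its values were seen, had 2772, 2789 and 4121 against 2705, 3097 and 2953 and overlapped (adjusted p of 0.625).

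The pentose phosphate pathway branches off at glucose-6-phosphate, upstream of Gpi1. Tkt, the transketolase that returns its sugars to glycolysis, had 5770, 5798 and 7516 counts in wildtype and 4201, 4745 and 4571 in EVX1-Δfs EBs. Pgd, a dehydrogenase of the oxidative arm, had 2259, 2229 and 3111 against 1886, 1645 and 1944, and for both every wildtype library was higher. Tkt fell by 0.49 ± 0.12 (adjusted p of 0.0257) and Pgd by 0.46 ± 0.13 (0.0397) on the log2 scale. Both calls were lost with the replicate block in limma (0.0593 and 0.0597) and kept with it in DESeq2 (0.0107 and 0.0288). Both were also lost without wildtype replicate 3 (0.0591 and 0.130) and without EVX1-Δfs replicate 1 (0.118 and 0.0916), 2 (0.0524 and 0.129) or 3 (0.0669 and 0.0673). The 5 other listed genes of this pathway (G6pdx, Pgls, Rpia, Rpe and Taldo1) had adjusted p from 0.351 to 0.994. Pfkfb2, a further bisphosphate-making regulator, had 73.7, 86.7 and 51.5 counts against 108, 144 and 101 and rose (0.75 ± 0.21, adjusted p of 0.0439). That call too was lost with the block (0.0579). DESeq2, with or without the block, did not make the call, nor did limma without the filter on low counts. Of the 12 other settings with all libraries that gave an adjusted p, 5 kept it. It was kept without wildtype replicate 2 (0.0248) but not without any other single library (0.0652 to 0.158). Once GC and length trends were removed, the calls of Tkt, Pgd and Pfkfb2 were all lost, as they were with cyclic loess.

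Of a wider hypoxia list, 47 of 51 genes were tested, and 1 was called higher and 2 lower, with a median log2 fold change of 0.03. Over all genes 5.02% were called in either direction. The list was written from general knowledge, with earlier results of these data known. The study's own text also names Cited2 and Cxcr4 among genes that changed in these libraries, so their direction is not independent evidence. Cited2, a HIF target whose product competes with HIF for the coactivators CBP and p300, had 921, 1067 and 907 counts in wildtype and 516, 779 and 672 in EVX1-Δfs EBs. It fell by 0.57 ± 0.14 on the log2 scale (adjusted p of 0.0176, 0.0355 with the block and 0.0191 without wildtype replicate 3). The call was not kept without wildtype replicate 2 (0.0539), without EVX1-Δfs replicate 1 (0.116), or with GC and length trends removed together with the block (0.0505).

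Cxcr4, a chemokine receptor of migrating mesendoderm, had 116, 186 and 161 counts against 69.1, 122 and 81.0. It fell by 0.78 ± 0.21 with an adjusted p of 0.0366, although EVX1-Δfs replicate 2 lay above wildtype replicate 1. The call was kept with the block (0.0406) and lost in 4 of the 6 fits that left out a library, with 0.0930 without wildtype replicate 3, 0.108 without wildtype replicate 2, 0.154 without EVX1-Δfs replicate 1 and 0.112 without EVX1-Δfs replicate 3. Wsb1, a ubiquitin ligase adaptor induced in hypoxia, had 402, 481 and 232 counts against 536, 556 and 713 and rose (0.75 ± 0.19, adjusted p of 0.0240). It was not called by DESeq2 (0.179), with the block (0.0854), or without wildtype replicate 3 (0.0880), EVX1-Δfs replicate 2 (0.0580) or 3 (0.100). The Wsb1 call was also lost without GC and length trends.

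Egln2, the remaining HIF prolyl hydroxylase, was singled out after its values were seen. It had 964, 869 and 1151 counts in wildtype and 732, 777 and 737 in EVX1-Δfs EBs, a log2 difference of -0.40 ± 0.12 with an adjusted p of 0.0536. It was called in 2 of 13 other settings with all libraries, DESeq2 and a pseudocount of 16, and in 1 of 6 that left out a library, wildtype replicate 2, with a lowest adjusted p of 0.0289. Vegfa, the angiogenic HIF target, also chosen afterwards, had means of 159 ± 50.5 and 197 ± 29.3 (SD, n = 3) and an adjusted p of 0.300.

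**Figure D5:**
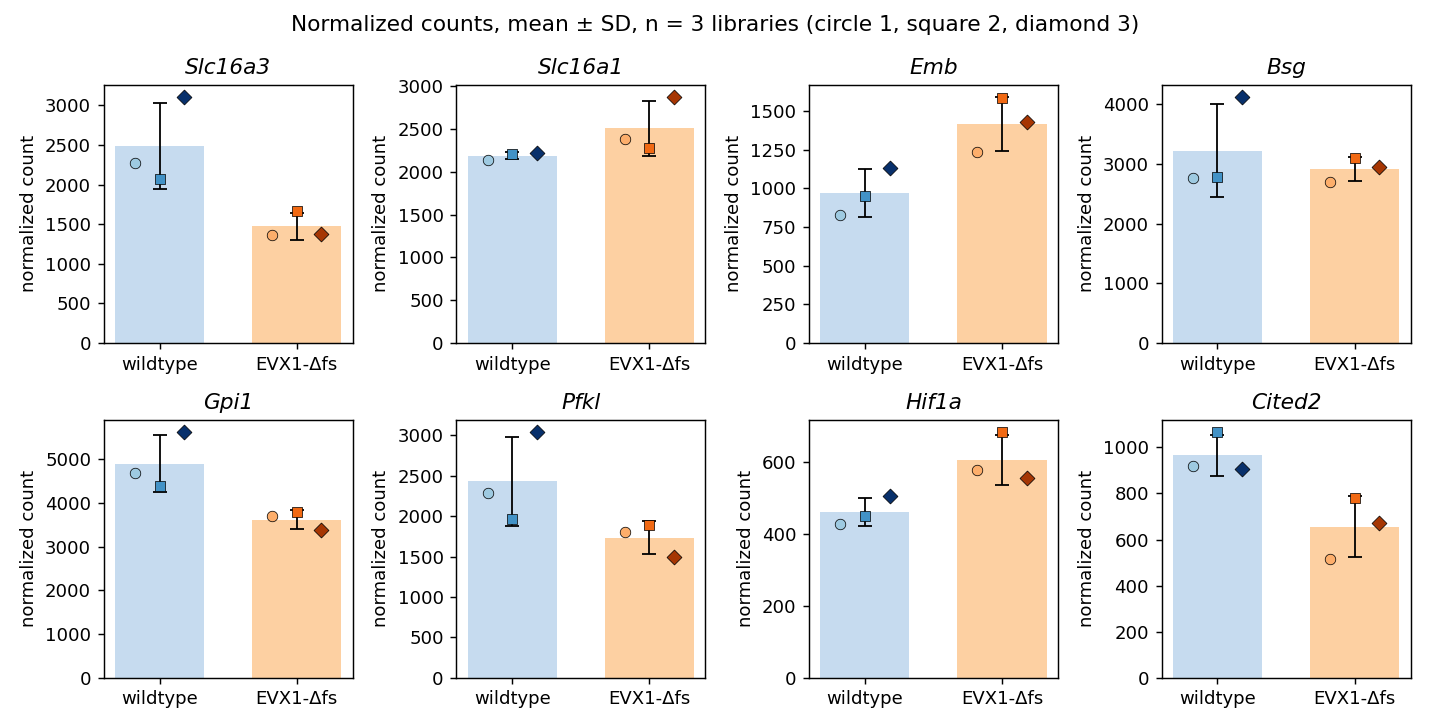
Bars are mean normalized counts with ± SD (n = 3), and points are libraries (circle, replicate 1; square, 2; diamond, 3), for the lactate transporters and their partners, both called enzymes, Hif1a and Cited2. Wildtype and EVX1-Δfs points do not overlap for Slc16a3, Slc16a1, Emb, Gpi1, Pfkl, Hif1a and Cited2, and overlap for Bsg.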

How the data were processed

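RNA was measured by mRNA-seq in day 4 EBs, with 3 libraries per genotype grouped by the sample labels. The authors mapped Ion Proton reads to mm9 with TopHat2 and TMAP and counted genes with HTSeq, as the labels and methods state. The versions, annotation and strand setting are not given in the sources used here. The deposited values are a signal, read counts per gene divided by 1 size factor per library. Whole reads were recovered for 100% of values (tolerance of 0.01), 7597879 to 9914471 per library.

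The study's methods used DESeq2 on counts. Because the deposited values were normalized, the main test here was on a log scale, and limma 3.58.1 with a mean-variance trend (R 4.3.3) was run on log2(normalized count + 1) over 13136 genes with at least 10 in at least 3 libraries. Genes were called at a Benjamini-Hochberg adjusted p-value under 0.05. The scale understates fold changes of low genes. DESeq2 1.42.0 and edgeR 4.0.16 on recovered reads, other scalings, filters, pseudocounts, GC and length correction (natural splines, 5 degrees of freedom), the block and leave-one-out fits were alternatives. Simulated data with 200 changed genes served to check limma, edgeR and DESeq2, each without the block and on all libraries. The other alternatives were not checked in this way.

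The members and lists were chosen with earlier results of these data known. Named with all values were called members, the 6 with the largest absolute log2 fold change, isoenzyme groups, tested HIF genes and called genes of the wider lists. Of the symbols, 21941 (94.0%) were placed on NCBIM37 with GENCODE vM1, and promoters came from RefSeq.

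Per the series' design text, each differentiation day held both genotypes, so the replicate number was taken to pair libraries. The sample titles give replicate numbers but no day of set-up. Deviations of same-numbered libraries correlated at 0.111, 0.00933 and -0.101 across 13136 genes. Beyond the separate days the labels name no separate cultures, and p-values measure the spread between these libraries.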

Additional observations from a re-analysis of the deposited data

How the results depend on the processing

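Fold changes of 43 named genes were followed through 13 settings that kept all libraries and 6 that left out 1. Of 551 comparisons in the first kind, 490 kept direction and side of the threshold, 42 lost a call, 2 gained one and 17 reversed. Of 258 in the second, the numbers were 203, 35, 5 and 15, and 32 genes never reversed. The count of transporters and regulators called was 1 in all of them. From 273 genes higher and 387 lower, limma with the replicate block called 76 and 146, DESeq2 with it 77 and 207, edgeR with it 67 and 126, removal of GC and length trends 89 and 162, and that with the block 41 and 95. Upper-quartile scaling gave 370 higher and 325 lower. Leaving out 1 library gave 77 to 332 higher and 138 to 355 lower.

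Enzymes called were 2, in a fit that called 5.02% of all genes in either direction. With the replicate block they were 0 in limma and edgeR and 1 in DESeq2 (1.69%, 1.47% and 3.35% of all genes). They were 4 in DESeq2 without it (6.89% of all genes), 1 with upper-quartile scaling (5.29%), and 0 without the filter (2.77%) or with cyclic loess (4.51%). Without GC and length trends they were 0 as well, with the block (1.05%) or without it (1.94%). They were 0 to 4 when 1 library was left out. None was called without wildtype replicate 3 (2.86% of all genes) or EVX1-Δfs replicate 1 (1.75%), 2 (4.16%) or 3 (1.68%). Leaving out wildtype replicate 1 gave 1 (3.37%), and leaving out wildtype replicate 2 gave 4 (4.95%). HIF pathway genes called were 0 to 1 when 1 library was left out (Ddit4). The same all-gene shares apply to the wider lists, with 5.48% for a pseudocount of 16. The wider glycolysis list, 4 called, had 1 with the block in limma and edgeR, 3 with it in DESeq2, 2 without the filter, 1 with cyclic loess, 0 without GC and length trends, also with the block, and 0 to 4 without 1 library. The wider HIF list, 3 called, had 1 in DESeq2 with the block, 5 with a pseudocount of 16, 5 with upper-quartile scaling, 1 with the block and no GC and length trends, and 1 to 3 without 1 library.

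Reversed log2 fold changes, none of them called, were with cyclic loess 0.0772 (Hk2), 0.0513 (Pgk1), -0.0596 (Eno1), 0.0875 (Ldha), 0.0805 (Ldhb) and 0.104 (Gm5506). With upper-quartile scaling Ldhb was at 0.00375. Without GC and length trends, with or without the block, they were 0.00917 (Hk2), 0.0673 (Ldhb), -0.000677 (Slc2a3), -0.127 (Arnt) and 0.0517 (Gm5506). Leaving out 1 library gave -0.0706 to 0.0295 for Hk2, -0.177 to 0.102 for Pgk1, -0.371 to 0.633 for Eno1, -0.228 to 0.135 for Ldha, -0.0719 to 0.0421 for Ldhb, -0.0465 to 0.169 for Slc2a3, -0.146 to 0.283 for Pfkfb3, -0.235 to 0.00453 for Pfkfb4, -0.497 to 0.0257 for Epas1 and -0.195 to 0.197 for Gm5506. The cause of these reversals was not tested. With 7597879 to 9914471 reads, Car9 and other genes under 10 normalized counts were too shallow to compare, and 3 libraries per genotype limit the rest.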
